A study of Mus musculus with 5 samples.

Results

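Unfolded protein response genes were followed in mammary epithelial cells of 4-week-old mice with and without an epithelial deletion of Mmp14, the gene of a membrane-anchored matrix metalloproteinase. The set holds 10 genes, named for their place in the response: Hspa5, Hsp90b1, Calr, Sdf2l1, Pdia4, Dnajb9, Herpud1, Xbp1, Atf4 and Ddit3. A member was measured by a probe set annotated to that gene alone, and where a gene has several the brightest on average over the 5 arrays is taken. This gave 9 of the 10 members, each with 1 such probe set, among 22180 genes named in the same way. Pdia4, a protein disulfide isomerase, has no value here, because its probe set is also annotated to the microRNA gene Mir704.

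The 2 knockout arrays hold RNA of mice that carried an MMTV-Cre transgene and floxed alleles of Mmp14 (MMTV-Cre+/Mmp14(f/f)). The 3 wild-type arrays hold RNA of Mmp14(f/f) littermates, which have the floxed alleles too but no Cre in their label. Both groups are congenic FVB/NJ, were taken at 4 weeks, and were prepared from inguinal glands by collagenase digestion and centrifugation, after which 10 ng of RNA was labelled. MMTV-Cre is driven by a mouse mammary tumour virus promoter, which is active in mammary epithelium, and the labels do not say in which share of the cells the alleles were recombined. They call the samples biological replicates without saying whether an array holds 1 mouse or a pool, so the p-values cover only the spread among these samples, which may be technical.

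The unfolded protein response adjusts the folding capacity of the endoplasmic reticulum (ER) to its load of secreted and membrane proteins. The sensors IRE1, PERK and ATF6 sit in the ER membrane. IRE1 splices the Xbp1 mRNA, PERK slows translation while favouring that of Atf4, and ATF6 is cut to release a transcription factor, and the resulting factors raise chaperones, disulfide isomerases and degradation factors of the ER. In the mammary gland this machinery is best known from the secretory epithelium of pregnancy and lactation, where XBP1 supports ER expansion.

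The ER stress response element, which pairs a CCAAT box for NF-Y with a CCACG for ATF6, is the promoter sequence through which several of these genes are induced. Promoters from 250 bases before to 50 bases after the start of the gene were found for all 10 members in RefSeq (GRCm38.p6) and searched on both strands. CCAAT and CCACG with any 9 bases between them, an exact form of the element, were found in 3 of 10 members, Hspa5, Hsp90b1 and Calr, against 0.119% of 32851 promoters. The shorter element II, ATTGG and CCACG with any 1 base between them, was found in 1 of 10, Herpud1, against 0.0365% of promoters. The C/EBP-ATF element TTGCATCA was found in 1 of 10, again Herpud1 and without overlap with its element II, against 0.895%. The XBP1 element TGACGTGG was found in 0 of 10, against 0.676%. These matches describe letters within the window only. As several of these genes are known to be induced through the element, the shares beside the counts are no test of the members. The 4 promoters with a match are shown because they set these members apart by sequence, with the matches in capitals and each written 5′ to 3′ on the strand of its gene. That of Hspa5 is chr2:34771840-34772139 (plus strand), with the element from base -65 to base -47 relative to the start. That of Hsp90b1 is chr10:86705395-86705694 (minus strand), with 1 element from -212 to -194 and a second, on the opposite strand, from -107 to -89. That of Calr is chr8:84846882-84847181 (minus strand), with the element from -162 to -144 on the opposite strand. That of Herpud1 is chr8:94386179-94386478 (plus strand), with the C/EBP-ATF element from -112 to -105 and element II from -52 to -42.
Hspa5: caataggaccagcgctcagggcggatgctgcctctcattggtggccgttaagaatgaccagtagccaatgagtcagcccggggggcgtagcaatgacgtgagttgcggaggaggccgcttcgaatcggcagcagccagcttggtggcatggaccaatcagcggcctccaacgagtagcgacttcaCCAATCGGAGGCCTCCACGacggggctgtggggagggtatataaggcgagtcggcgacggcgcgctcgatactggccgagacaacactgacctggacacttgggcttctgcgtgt
Hsp90b1: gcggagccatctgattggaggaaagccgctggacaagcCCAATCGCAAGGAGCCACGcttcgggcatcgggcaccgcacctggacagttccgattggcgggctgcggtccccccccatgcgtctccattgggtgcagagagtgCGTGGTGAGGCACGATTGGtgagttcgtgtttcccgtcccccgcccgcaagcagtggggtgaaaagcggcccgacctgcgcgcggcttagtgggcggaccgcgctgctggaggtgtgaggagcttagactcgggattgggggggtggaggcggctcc
Calr: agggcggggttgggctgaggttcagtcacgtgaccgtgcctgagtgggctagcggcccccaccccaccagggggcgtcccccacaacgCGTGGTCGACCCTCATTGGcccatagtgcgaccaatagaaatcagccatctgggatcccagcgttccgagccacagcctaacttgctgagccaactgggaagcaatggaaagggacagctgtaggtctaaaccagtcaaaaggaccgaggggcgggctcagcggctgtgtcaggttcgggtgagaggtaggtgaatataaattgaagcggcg
Herpud1: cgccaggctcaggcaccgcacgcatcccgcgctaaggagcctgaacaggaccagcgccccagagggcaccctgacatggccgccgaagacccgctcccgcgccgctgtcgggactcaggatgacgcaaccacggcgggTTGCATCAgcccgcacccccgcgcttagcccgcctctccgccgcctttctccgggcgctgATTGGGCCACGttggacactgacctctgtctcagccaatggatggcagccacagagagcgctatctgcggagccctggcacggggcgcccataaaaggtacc

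Values are the deposited log2 signals, on which 1 unit is a 2-fold change, and the median of the 41345 probe sets was 4.24 to 4.29 on each array. Mmp14 itself read 7.98 and 7.28 on the knockout arrays and 8.15, 8.67 and 7.75 on the wild-type arrays. Over all 5 arrays together its signal thus did not separate the groups. Luminal and basal keratins, markers of the labelled cell type, were bright: Krt8 lay between 11.34 and 11.48 and Krt14 between 8.96 and 9.29 over the 5 arrays. The fibroblast proteoglycan Dcn, at 10.21 to 10.71, and the endothelial adhesion gene Pecam1, at 7.64 to 8.80, were also well above the array medians. The array numbers in the labels form 2 consecutive runs, with knockout 1, wild type 1 and wild type 2 in run 1 and wild type 3 and knockout 2 in run 2. Within each run, the Mmp14 signal of the knockout array was below that of every wild-type array. Many signals are equal between arrays to 6 decimals, and only 31.2% of genes have 5 different values. Among the members this held for 4 of 9, namely Hsp90b1, Ddit3, Dnajb9 and Sdf2l1.

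Hspa5, which encodes BiP, the HSP70 chaperone of the ER that also holds the stress sensors inactive, read 8.84 on knockout 1 and 9.09 on knockout 2. Its wild-type signals were 9.002, 9.072 and 9.002. One knockout array thus lay below all wild-type arrays and the other above all of them. The mean was 8.96 ± 0.17 (SD, n = 2) in the knockout and 9.03 ± 0.04 (SD, n = 3) in the wild type. The difference was -0.061 ± 0.087 (SE; limma adjusted p = 0.920), and the signal was lower than the wild-type mean in 1 of 2 knockout arrays.

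Hsp90b1, which encodes GRP94, the HSP90 chaperone of the ER, read 10.24 and 10.30 in the knockout and 10.32, 10.23 and 10.42 in the wild type. Both knockout arrays fell within the wild-type span. The difference was -0.053 ± 0.066 (SE; limma adjusted p = 0.919), with a 95% interval from -0.24 to 0.13.

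Calr, a calcium-binding lectin chaperone that holds glycoproteins during folding, read 9.17 and 8.89 in the knockout and 9.19, 9.17 and 9.17 in the wild type. Knockout 1 had the same value as wild type 3, and nearly all of the difference of the means came from knockout 2. The mean was 9.03 ± 0.19 (SD, n = 2) against 9.18 ± 0.01 (SD, n = 3), and they differed by -0.15 ± 0.09 (SE; limma adjusted p = 0.919). Without knockout 1 the difference was -0.29, which rests on knockout 2 alone.

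Sdf2l1, an ER protein that works in complexes with BiP and its co-chaperones, read 5.19 and 5.01 in the knockout and 5.34, 5.17 and 5.42 in the wild type. Knockout 2 had the lowest signal of the 5 arrays, whereas knockout 1 lay above wild type 2. The mean was 5.10 ± 0.13 (SD, n = 2) against 5.31 ± 0.13 (SD, n = 3), and they differed by -0.21 ± 0.11 (SE; limma adjusted p = 0.919), or 1.16-fold. Both knockout arrays were below the wild-type mean.

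Dnajb9, which encodes ERdj4, a J-domain partner of BiP, had knockout arrays further apart than any other member. It read 9.18 on knockout 1 and 9.68 on knockout 2, against 9.47, 9.48 and 9.35 in the wild type, so that the knockout arrays again lay on either side of all wild-type arrays. The means were nearly equal, at 9.43 ± 0.36 (SD, n = 2) and 9.43 ± 0.07 (SD, n = 3). The difference was -0.0059 ± 0.175 (SE; limma adjusted p = 1), and its sign turned without knockout 1 (0.25), wild type 1 (0.013) or wild type 2 (0.018).

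**Figure D1:**
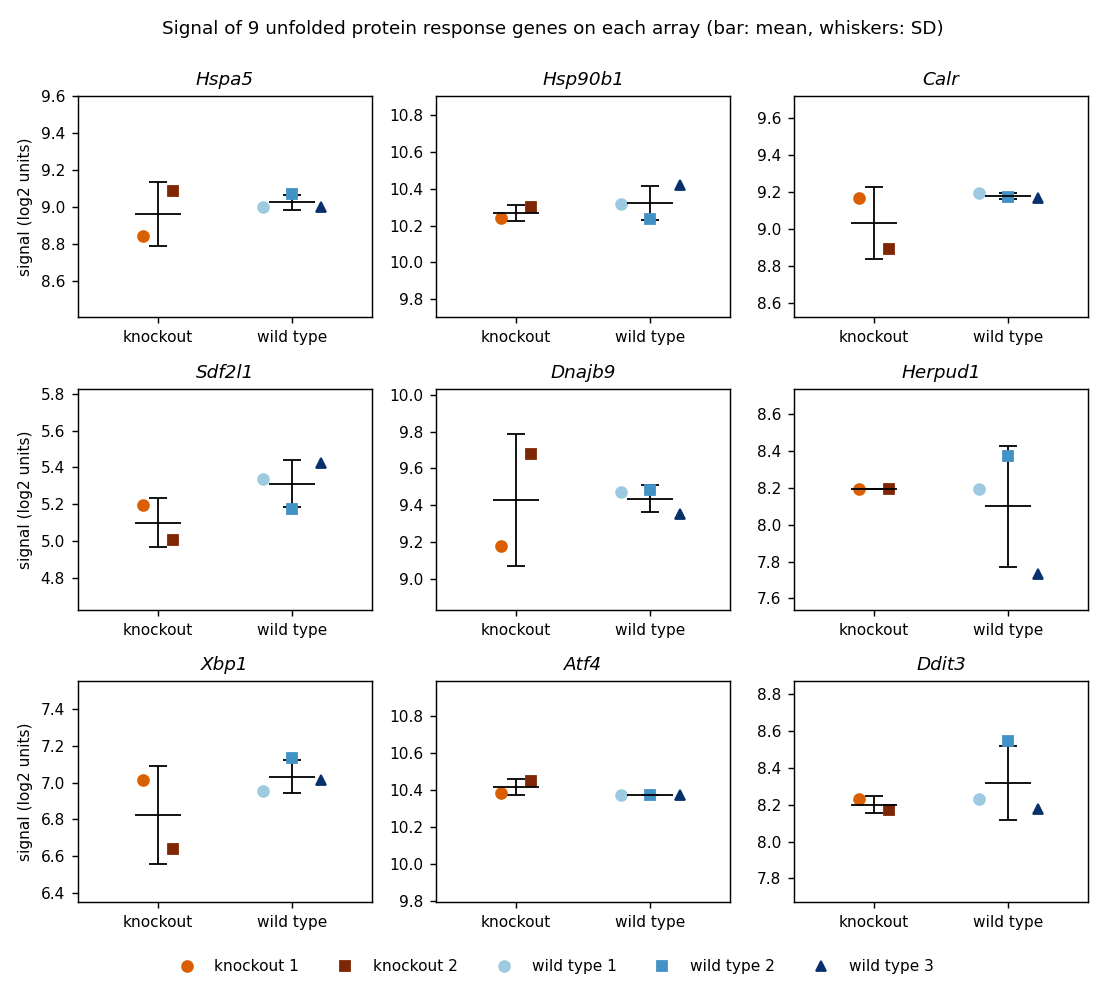
Signal in log2 units (y axis, 1.2 units high in each panel) of 9 members on the 2 knockout and 3 wild-type arrays. Points are arrays, bars group means and whiskers the SD. Knockout 1 and knockout 2 lie on either side of all wild-type arrays for Hspa5 and Dnajb9, and knockout 2 alone is low for Calr and Xbp1.

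Herpud1, a ubiquitin-like ER membrane protein that recruits the machinery for ER-associated degradation, varied mainly within the wild type. Its signal was 8.19 on both knockout arrays and on wild type 1, equal to 6 decimals, and 8.37 and 7.73 on wild type 2 and wild type 3. The knockout arrays therefore fell inside the wild-type span. The difference was 0.094 ± 0.22 (SE; limma adjusted p = 0.963), and it became -0.089 without wild type 3.

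Xbp1, the transcription factor gene whose mRNA IRE1 splices, read 7.01 and 6.64 in the knockout and 6.95, 7.13 and 7.01 in the wild type. Knockout 2 was the lowest array and knockout 1 equalled wild type 3. The mean was 6.83 ± 0.27 (SD, n = 2) against 7.03 ± 0.09 (SD, n = 3), and they differed by -0.21 ± 0.14 (SE; limma adjusted p = 0.919), or 1.15-fold. The difference was -0.019 without knockout 2 and -0.40 without knockout 1. The probe set gives 1 signal for the gene and was not used to tell spliced from unspliced mRNA.

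Atf4, the factor whose translation rises when PERK phosphorylates eIF2α, was the only member whose groups did not overlap. It read 10.38 and 10.45 in the knockout and 10.37 on all 3 wild-type arrays, where the deposited values are equal. The difference was 0.042 ± 0.024 (SE; limma adjusted p = 0.919), or 1.03-fold. Without knockout 1 it was 0.073, in a comparison of 1 array with 3 equal values. The arrays measure Atf4 mRNA, not its translation.

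Ddit3, which encodes CHOP, a factor of prolonged ER stress and cell death, read 8.23 and 8.17 in the knockout and 8.23, 8.54 and 8.18 in the wild type. Wild type 2 stood above the other arrays, which spanned a narrow range. The difference was -0.12 ± 0.14 (SE; limma adjusted p = 0.919), and without wild type 2 it was -0.0013.

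In the comparison of knockout with wild type, 0 of 9 members passed limma's adjusted p of 0.05, where 0 of 22180 genes (0%) did. At an unadjusted p under 0.05 limma gave 0 of 9 members against 288 genes (1.3%). The groups did not overlap for 1 of 9 members, Atf4, against 5.43% of all genes in either direction and 2.63% in the direction of a higher knockout. The mean was lower in the knockout for 7 of 9 members, where 49.5% of all genes were lower, 46.3% higher and 4.20% equal within 1e-06, and the median difference was -0.061 over the members and 0 over all genes. In size, the median difference was 0.094 over the members and 0.052 over all genes, and the differences of the members ran from -0.21 to 0.094. The 95% intervals were narrowest for Atf4, from -0.026 to 0.11, and widest for Herpud1, from -0.53 to 0.72.

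**Figure D2:**
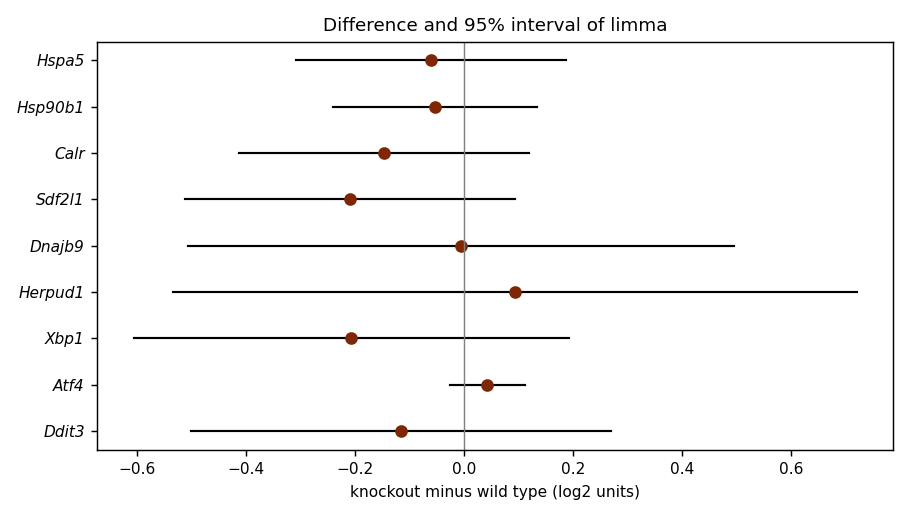
Difference of knockout minus wild type in log2 units (x axis) for each of 9 members, with points for limma's estimate and lines for its 95% interval. Every interval includes 0, and 7 of the 9 points lie below it.

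The spread of the members between arrays was set beside that of the median gene. All 9 members were brighter than the median gene, and genes of like signal were not compared. The range over the 5 arrays had a median of 0.38 over the members and 0.21 over all genes, and 7 of 9 members exceeded the latter. The gap between the 2 knockout arrays was larger than that of the median gene (0.082) for 5 of 9 members. These 5 did not move the same way. From knockout 1 to knockout 2 the signal was higher by 0.50 for Dnajb9 and by 0.24 for Hspa5. It was lower by -0.38 for Xbp1, by -0.28 for Calr and by -0.19 for Sdf2l1. The promoters with an ER stress response element were found on both sides of this split, in Hspa5 and in Calr, while Hsp90b1, with 2 such elements, differed by 0.061 between the knockout arrays.

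Counted by array, knockout 2 had the highest signal for 3 members (Hspa5, Dnajb9 and Atf4) and the lowest for 4 (Xbp1, Calr, Sdf2l1 and Ddit3). Knockout 1 had the lowest for 2 (Hspa5 and Dnajb9) and the highest for 0. Of the wild-type arrays, wild type 2 had the highest signal for 3 members. The same counts were not made over all genes, so they only describe the members. Relative to the wild-type mean, the median deviation of the members was -0.084 on knockout 1 and -0.023 on knockout 2, against 0, 0.046 and -0.019 on the wild-type arrays. The knockout arrays differed from each other in which members were low, and the medians do not show it.

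Profiles over the 5 arrays, each centred on its mean, were compared between members by their mean absolute distance. Of 36 pairs, the closest were Hspa5 with Atf4 (0.061 log2 units) and Xbp1 with Calr (0.064), and Sdf2l1 lay near Calr (0.076). The most distant were Herpud1 with Sdf2l1 (0.26), Xbp1 with Dnajb9 (0.24) and Dnajb9 with Sdf2l1 (0.23). Members that vary little are close to each other by construction in this measure.

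**Figure D3:**
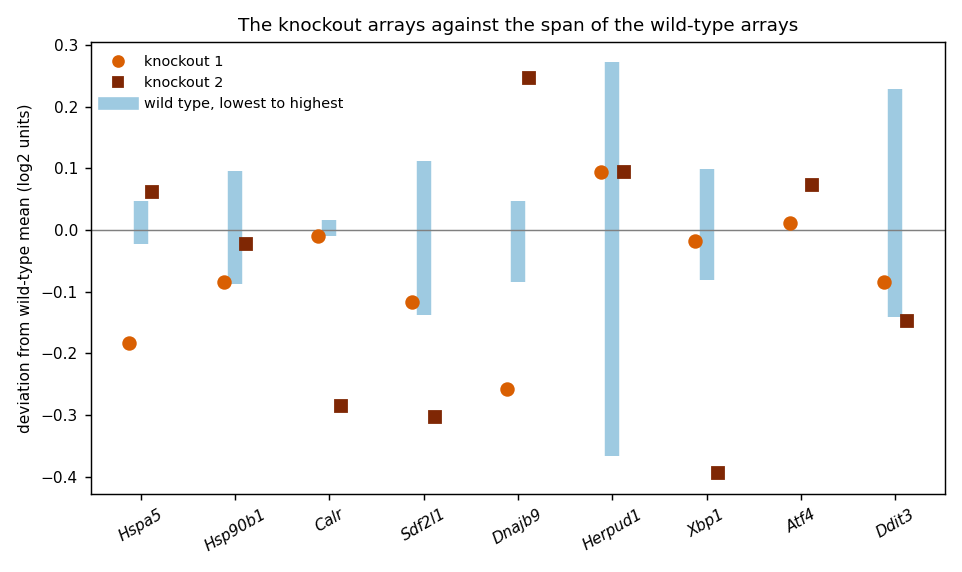
Deviation from the wild-type mean in log2 units (y axis) of knockout 1 (circles) and knockout 2 (squares) for each of 9 members, with bars from the lowest to the highest wild-type array. Both knockout arrays leave the bar in opposite directions for Hspa5 and Dnajb9, and knockout 2 lies below it for Calr, Sdf2l1, Xbp1 and Ddit3.

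Within run 1, knockout 1 was lower than the mean of the 2 wild-type arrays for 8 of 9 members, with a median difference of -0.061. Within run 2, knockout 2 was lower than wild type 3 for 5 of 9, with a median of -0.0065. The sign was the same in both runs for 6 of 9 members. Sdf2l1 differed by -0.061 in run 1 and -0.42 in run 2, Xbp1 by -0.028 and -0.38, and Calr by -0.014 and -0.28. Dnajb9 differed by -0.30 and 0.33, Hspa5 by -0.20 and 0.084, and Herpud1 by -0.089 and 0.46. Each run holds 1 knockout array, so a run effect on the knockout alone and a difference between the knockout arrays cannot be told apart. A shift of a whole run would also reach its wild-type arrays, of which run 2 holds 1.

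Other genes of the pathway were taken from 7 lists, with 143 of 153 genes measured. Limma's test with adjustment over all genes passed 0 of them. Limma gave an unadjusted p under 0.05 for 2 of the 143, against 1.3% of all genes. The mean was lower in the knockout for 94 of the 143 genes (65.7%), higher for 45 and equal for 4, where 49.5% of all genes were lower, and the median difference was -0.030. The knockout arrays did not share this evenly. The median deviations of the lists ran from -0.011 to 0.11 on knockout 1 and from -0.20 to 0.0069 on knockout 2. On the wild-type arrays they ran from -0.12 to 0.10. Knockout 2 was below knockout 1 in every list but that of the cell death genes. The groups did not overlap for 7 of the 143 with a lower knockout, against 2.8% of all genes. They did not overlap for 1 of the 143 with a higher knockout, against 2.63%.

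Among the 14 measured sensors, kinases of eIF2α and membrane-bound factors, 9 were lower, 3 higher and 2 equal on all arrays, with a median of -0.071 and 0 called. The median deviation of this list was -0.14 on knockout 2 and 0 on knockout 1, against -0.0034, 0.015 and -0.040 on the wild-type arrays. Eif2ak3, which encodes PERK, read 6.30 and 6.15 in the knockout and 6.43, 6.32 and 6.53 in the wild type, without overlap (-0.20 ± 0.087, SE; limma adjusted p = 0.919). Eif2ak2, the kinase activated by double-stranded RNA, read 6.14 and 5.75 against 6.36, 6.14 and 6.14. Creb3, a membrane-bound transcription factor, differed by -0.087.

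The PERK and ATF4 arm split more evenly by direction, with 14 of 24 genes lower, 10 higher, a median of -0.025 and 0 called. Its arrays were not even. The median deviation of this list was 0.11 on knockout 1 and -0.20 on knockout 2, against 0.033, 0.10 and -0.12 on the wild-type arrays. Stc2, a secreted glycoprotein induced by ATF4, read 6.95 and 6.67 in the knockout and 7.22, 6.97 and 6.99 in the wild type. Atf5, a related factor, differed by -0.082 and Sesn2, a stress-induced regulator of mTORC1, by -0.19. The 10 measured cell death genes linked to ER stress had 6 higher and 4 lower, with a median of 0.014 and 0 called. Bbc3, the BH3-only protein PUMA, read 4.77 and 4.69 against 4.42, 4.69 and 4.69.

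Of 22 other ER chaperones and folding factors, 14 were lower, 6 higher and 2 equal on all arrays, with a median of -0.016 and 0 called. Dnajc3, a J-domain partner of BiP that also inhibits PERK, read 9.18 and 9.09 in the knockout and 9.24, 9.18 and 9.24 in the wild type. Fkbp11, a prolyl isomerase of secretory cells, read 5.79 and 5.23 against 6.01, 5.79 and 5.75, low on knockout 2. Fkbp2, another prolyl isomerase, differed by -0.099 without overlap.

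For disulfide formation, 12 of 18 genes were lower and 6 higher, with a median of -0.047 and 0 called. Tmx3, a membrane-bound disulfide isomerase, read 8.27 and 8.03 in the knockout and 8.44, 8.33 and 8.57 in the wild type, without overlap (-0.29 ± 0.11, SE; limma adjusted p = 0.919). Prdx4, the ER peroxiredoxin, was the pathway gene with a higher knockout and no overlap, at 7.63 and 7.56 against 7.53, 7.50 and 7.53. Pdia6 had 1 deposited value, 7.47, on 4 arrays and 7.22 on knockout 2.

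Among 24 genes of ER-associated degradation, which handles what cannot be folded, 18 were lower and 6 higher, with a median of -0.017 and 0 called. Selenos, a selenoprotein of the retrotranslocation complex, read 8.41 and 8.54 in the knockout and 8.65, 8.81 and 8.69 in the wild type. Its difference was -0.24 ± 0.071 (SE; unadjusted p = 0.0311 and adjusted p = 0.919 by limma), and both knockout arrays lay below all wild-type arrays. Os9, a lectin of this pathway, was at 7.15 or 7.16 on 4 arrays and at 6.90 on knockout 2. Edem3, a mannosidase, differed by -0.045.

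The 31 genes of import, N-glycosylation and export had 23 lower and 8 higher, with a median of -0.062 and 0 called. Lman1, a cargo receptor for export, read 6.90 and 6.79 in the knockout and 7.14, 7.02 and 6.98 in the wild type (-0.20 ± 0.068, SE; unadjusted p = 0.0472 and adjusted p = 0.919 by limma). Srpr, the receptor of the signal recognition particle, differed by -0.19 and Stt3a, a catalytic subunit of oligosaccharyltransferase, by -0.093. The median deviation of this list was -0.12 on knockout 2 and -0.0058 on knockout 1, against -0.0021, -0.0031 and -0.0075 on the wild-type arrays. Knockout 2 was the lowest array for 21 of the 31 genes and knockout 1 for 3, among them Stt3a. The lowest array was not counted over all genes, so this count has no background share beside it.

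**Figure D4:**
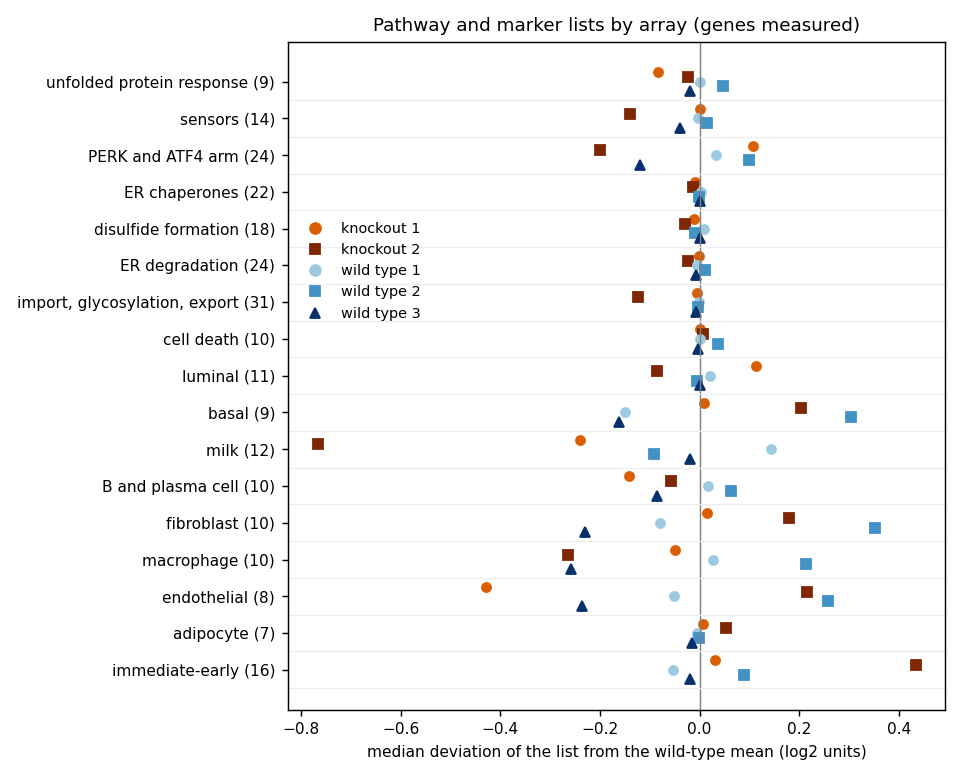
Median deviation from the wild-type mean in log2 units (x axis) of the members, 7 further pathway lists, 8 cell type and secretion marker lists and the immediate-early genes, with 1 point for each of the 5 arrays and the number of measured genes in brackets. Knockout 2 stands apart for milk genes (-0.77), immediate-early genes (0.43), the sensors (-0.14) and the list of import, glycosylation and export (-0.12). It is also lowest for the PERK and ATF4 arm (-0.20), where wild type 3 is at -0.12.

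Other gene groups also differed between the arrays on which the members did. The 12 milk and secretory genes were all lower in the mean of the knockout, with 0 called and a median deviation of -0.24 on knockout 1 and -0.77 on knockout 2, and their summed linear signal was 2205 to 3076 in the knockout and 3607 to 5523 in the wild type. Glycam1, listed here as a mucin-like protein of milk, read 4.24 and 4.76 in the knockout and 10.72, 10.74 and 8.10 in the wild type. It was highest on wild type 1 and wild type 2, as were the summed markers of B and plasma cells (266 and 279). On wild type 3 the 2 did not run together. The summed markers there (182) lay within the 175 to 189 of the knockout, whereas Glycam1 was above both knockout arrays. Which cells gave the Glycam1 signal was not tested. Without Glycam1, left out after its values were seen, the milk sums were 3057 on knockout 1 and 2178 on knockout 2. Those of the wild type were 2748 to 3842, so that knockout 1 lay within the wild type. Of the 16 immediate-early genes, which tissue dissociation can induce, 14 were higher and 0 called, with a median deviation of 0.031 on knockout 1 and 0.43 on knockout 2 and summed signals of 9719 to 13420 against 9825 to 10960. Of the 11 luminal genes, 5 were higher, 6 lower and 0 called, with a median deviation of 0.11 on knockout 1 and -0.085 on knockout 2 and summed signals of 9951 to 11114 against 10369 to 10471. The part of these groups in the signals of the members was not tested. In bulk RNA, fewer cells of a type and less RNA per cell cannot be told apart.

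Markers of other cell types, and of basal cells, are given for the same arrays. B and plasma cells, of which the latter carry much Xbp1 and Herpud1 mRNA, had 8 of 10 measured markers lower and 0 called, with summed signals of 175 to 189 in the knockout and 182 to 279 in the wild type. By their mean over the 5 arrays, 7 of these 10 markers were dimmer than the median gene. Among the 7, Jchain (2.80 to 2.96) and Tnfrsf17 (3.22 to 3.39) lay below the array medians on all 5 arrays. Prdm1 (4.81 to 5.05) and Ighm (5.02 to 6.81) lay above the array medians. Endothelial markers were lower for 6 of 8 with 0 called and were lowest on knockout 1 (median deviation -0.43), with summed signals of 1075 to 1737 against 1288 to 1859. Fibroblast markers were higher for 7 of 10 with 0 called, with sums of 6561 to 7397 against 5610 to 7627. Macrophage markers were lower for 8 of 10 with 0 called, with sums of 781 to 1137 against 759 to 1206. Basal markers were higher for 7 of 9 with 0 called, with sums of 3656 to 3859 against 3019 to 4277. Adipocyte markers were higher for 4 of 7 with 0 called, with sums of 1622 to 2794 against 2070 to 2220, lowest on knockout 1 and highest on knockout 2 like the immediate-early sums. The part of these cells in the signals of the members was not tested.

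Herpud1 had the widest range over the 5 arrays among the members (0.64), and the genes with the nearest centred profile were sought among 11089 others with a mean above the median gene. They were Gadd45b, Sirpa, Dyrk1b, Tbcel and Spry1, each at a mean absolute distance of 0.027 or 0.028 log2 units. Gadd45b, a stress-induced growth arrest gene, read 9.14 on both knockout arrays and on wild type 1, 9.37 on wild type 2 and 8.74 on wild type 3. These profiles share the low value of wild type 3 and the high value of wild type 2. Gadd45b, Dyrk1b and Spry1 also share the equal values of both knockout arrays and wild type 1, which Sirpa and Tbcel do not. The nearest member, Ddit3, ranked 1292 in this order.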

How the data were processed

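Total RNA of mammary epithelial cells was measured on Affymetrix arrays, 2 knockout and 3 wild-type. The authors deposited log2 signals per probe set, and the submitters' processing notes list RMA and limma, with no version. No source used here gives the array's library files. Of 41345 probe sets, 23521 name 1 gene symbol, 1814 several and 16010 are not listed in the platform annotation. Probe sets with 1 symbol were reduced to the 1 with the highest mean for each of 22180 genes. Knockout was compared with wild type in R 4.3.3 by limma 3.58.1 (a linear model with moderated variances, two-sided, Benjamini-Hochberg adjustment over all genes, threshold 0.05). The procedure was run on simulated data whose differences were larger than those of the members and which held no equal values. That run does not show the power of the test for the members. Symbols of the lists were matched directly or, for 5 genes, as synonyms in RefSeq's gene table. From each list up to 3 genes with the largest moderated t are named. The members and lists were chosen with earlier results of these data known. Deviations from the group mean of samples with the same replicate number had correlations of 0.25 and -0.04. With 2 knockout arrays these cannot settle whether the numbers mark pairs, and the main comparison did not treat them so. The number of arrays limits the precision. Alternatives covered scaling, dim genes, probe sets, variance, array weights, runs, the replicate block and each array left out.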

Additional observations from a re-analysis of the deposited data

How the results depend on the processing

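With all 5 arrays, 0 of 9 members and 0 of all genes were called under every scaling, filter, weighting, run and replicate block setting tried, and also within run 1. Leaving out 1 wild-type array in turn gave 0 called members and 0 called genes. Over all arrays left out in turn, 1 to 7 members were without overlap (9.01% to 46.3% of all genes). The median difference lay between -0.089 and -0.023. The called members, Atf4 and Calr, appeared without knockout 1 only. Without knockout 1 there were 1757 called genes and without knockout 2 there were 835, where the lone array is assumed to vary like the wild type. The 7 without overlap arose without knockout 1, against 46.3% of all genes. Within run 1 there were 4 members without overlap, against 46.6% of all genes, and within run 2 the median difference was -0.0065. The share of all genes without overlap was 13.4% after quantile normalisation and 11.7% after median centring, with 1 member in each. The replicate block, which treats the replicate numbers as pairs, gave 0 called members and a median difference of -0.089. The difference of Herpud1 turned to -0.089 within run 1, with the replicate block and without wild type 3. That of Hspa5 turned to 0.061 without knockout 1, and that of Dnajb9 to 0.25 without knockout 1, 0.013 without wild type 1 and 0.018 without wild type 2. Over the arrays left out in turn, Herpud1 ran from -0.089 to 0.23, Hspa5 from -0.18 to 0.061 and Dnajb9 from -0.26 to 0.25. These settings use fewer arrays, and the block leaves wild type 3 without weight. Hsp90b1, Ddit3, Atf4, Xbp1, Sdf2l1 and Calr kept their direction in all 16 alternatives. Low signals cannot be told from background without detection calls.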
